A study of Apis mellifera with 10 samples.

Results

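In antennae of newly emerged honey bees (Apis mellifera), 98 protein-coding genes had, in every library from bees injected against orco, a level below 0.5 times that of the lowest control library. Levels are in CPM, the count of a gene scaled to a library total of 1000000 counts on bee genes. They were chosen by that rule from 3720 eligible genes. Eligible genes were protein-coding, spanned less than 200000 bases and had a control mean of at least 20 CPM. Before the choice 10 genes were set aside by symbol, among them Or2 (orco itself) and the channel genes Para, Cac and Amih, and of these 4 also met the rest of the rule. The 98 genes were 2.63% of the eligible ones, and the series counted 12332 bee genes in all. Since the group difference chose the genes, it is given here as a description and is not tested.

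In the dendrites of olfactory sensory neurons, insect odorant receptors work as ion channels together with the coreceptor Orco. The antenna holds these neurons together with mechanosensory and taste neurons, glia, support cells, epidermis and muscle. Neurons depend on voltage-gated sodium and calcium channels with their accessory subunits, and on secreted and adhesion proteins that shape their contacts. Many genes of neurons span long introns.

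The orco_KO group had received, as embryos, a CRISPR ribonucleoprotein complex directed at orco, and the control group had received injection buffer without the complex. All bees were raised in the laboratory, and antennae were taken from adults within 24 hours of emergence. There were 5 libraries in each group, numbered 3, 4, 5, 6 and 7 in controls and 3, 5, 9, 11 and 12 in orco_KO. The labels give neither the caste of the bees, nor the edit carried by each bee, nor whether each library is 1 bee, so p-values below measure only the spread between these libraries. Controls did not receive a complex against another target.

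Totals on bee genes ran from 9497211 to 23453690 in controls and from 8577416 to 18308425 in orco_KO. The targeted gene Or2 was at 386, 311, 408, 414 and 415 CPM in controls 3, 4, 5, 6 and 7, and at 13.4, 23.4, 38.3, 20.5 and 16.3 CPM in orco_KO 3, 5, 9, 11 and 12. Control libraries 6 and 7 differed from controls 3, 4 and 5. On the first principal component of log2 (CPM + 1) they were at -49.7 and -56.1, and the other controls lay between -11.1 and 16.8. Of the fixed neuron markers 6 of 8 were matched (Cac, Nrx-1, Para, Syt1, Syx1A and brp). Their summed level was 7846 to 12506 CPM in controls against 3293 to 4134 CPM in orco_KO. Cac, Para and brp were among the genes set aside by symbol. The highest orco_KO library was 0.450 times the lowest control in Cac and 0.472 times in Para, so this sum is not independent of the rule. The glial marker Eaat-2 (1 of 2 matched), below 20 CPM throughout, had 6.82 to 8.71 CPM in controls against 0.219 to 1.69 CPM in orco_KO. Summed antennal support and sensory markers (8 of 8 matched, Or2 among them) were at 9724 to 26069 CPM in controls and at 14655 to 22094 CPM in orco_KO. Summed muscle markers (3 of 7 matched) were at 2160 to 3230 and at 2223 to 4391 CPM, and head gland and venom genes (5 of 5 matched, Apamin at 0) reached at most 0.780 CPM. These sums can hide opposite moves. In both the muscle list and the support and sensory list, 1 gene was lower and 1 higher (edgeR, adjusted p below 0.05). Summed fat body markers (4 of 6 matched) were at 6.26 to 77.0 and at 22.3 to 66.7 CPM. Eye genes (4 of 4 matched) were at 2.42 to 11.7 and at 4.66 to 14.0 CPM. The part of these shifts in the values below was not tested, and in whole antennae fewer cells of a type and less RNA per cell cannot be told apart.

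The 98 genes together took 4.67, 4.18, 5.23, 5.04 and 5.12% of bee gene counts in controls 3, 4, 5, 6 and 7. In orco_KO 3, 5, 9, 11 and 12 they took 1.01, 1.24, 1.49, 1.47 and 1.16%. The mean control share was 4.85% ± 0.426, and the mean orco_KO share was 1.27% ± 0.208 (SD, n = 5). The ratio of the orco_KO mean to the control mean had a median of 0.242 over the 98 genes and ran from 0.0821 to 0.390. Over all eligible genes the median ratio was 0.941. Of the 98 genes, 54 were at least 4-fold lower and 5 at least 8-fold lower.

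**Figure D1:**
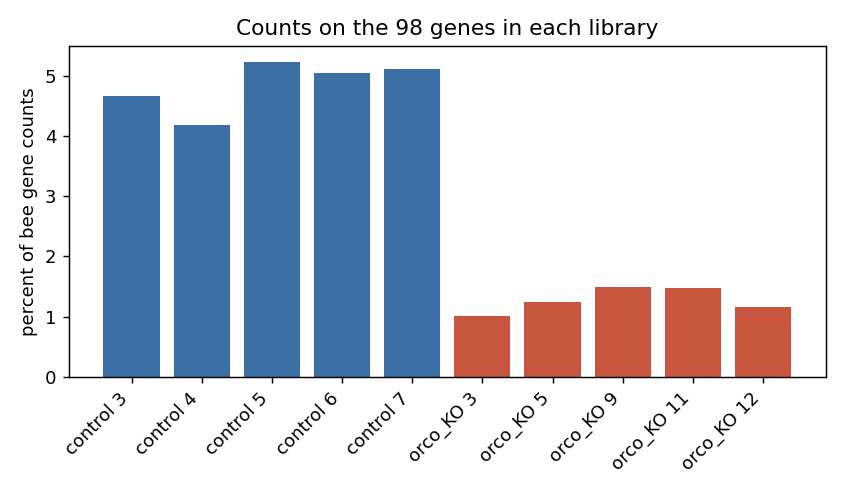
Share of bee gene counts on the 98 genes (vertical axis, percent) in each library (horizontal axis), controls in blue and orco_KO in red. The 5 control bars lie between 4.18 and 5.23% and the 5 orco_KO bars between 1.01 and 1.49%.

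No eligible gene showed the opposite pattern at the same strength. Eligibility asked for a control mean of at least 20 CPM and set no minimum in orco_KO. Genes below that level in controls could not enter, even if raised in orco_KO, so counts in the opposite directions are not like for like. Of the 3720 eligible genes, 0 had every orco_KO library above double the highest control. With no minimum fold, the groups did not overlap in 410 genes that were lower in orco_KO (11%) and in 240 that were higher (6.45%). Among long noncoding RNAs under the same limits, 4 of 98 met the halving rule (4.08%) and 0 were doubled. Protein-coding genes of 200000 bases or more, which the rule left out, met it in 10 of 133 cases (7.52%).

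Which libraries of a group were highest or lowest depended in part on how libraries were scaled. In CPM, among orco_KO libraries, replicate 3 was the lowest for 66 of the 98 genes, while replicates 9 and 11 together were the highest for 80. Among controls, replicates 3 and 4 were the lowest for 64. Within orco_KO the order of the member share was 3, 12, 5, 11 and 9 from low to high, and the order of Or2 was 3, 12, 11, 5 and 9. These 2 orders were not tested with so few libraries. Relative spread, the SD over the mean, had a median of 0.168 in controls and 0.231 in orco_KO, and it was larger in controls for 27 genes. Over all eligible genes the medians were 0.229 and 0.183. The rule used the lowest control and the highest orco_KO library, so it acted on the spread within groups. Members also had fewer counts in orco_KO by choice. Their spread is therefore not a property apart from the rule, whichever scaling is used.

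With TMM scaling, which sets the bulk of genes equal between libraries, orco_KO replicate 3 was still the lowest for 58 of the 98 genes. Replicate 5 was then the highest most often, for 45 genes, and had the largest member share, 1.51% of its effective library size against 1.07 to 1.41% in the others. Among controls, replicates 3 and 5 were the highest for 86 genes, and replicates 4, 6 and 7 the lowest for 94. Their member shares were 5.93 and 5.75% against 4.06 to 4.13%. The median relative spread of the members became 0.218 in controls and 0.209 in orco_KO, and it was larger in controls for 51 genes. Over all eligible genes the TMM medians were 0.218 and 0.166, so the members' smaller control spread in CPM was not seen with TMM.

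**Figure D2:**
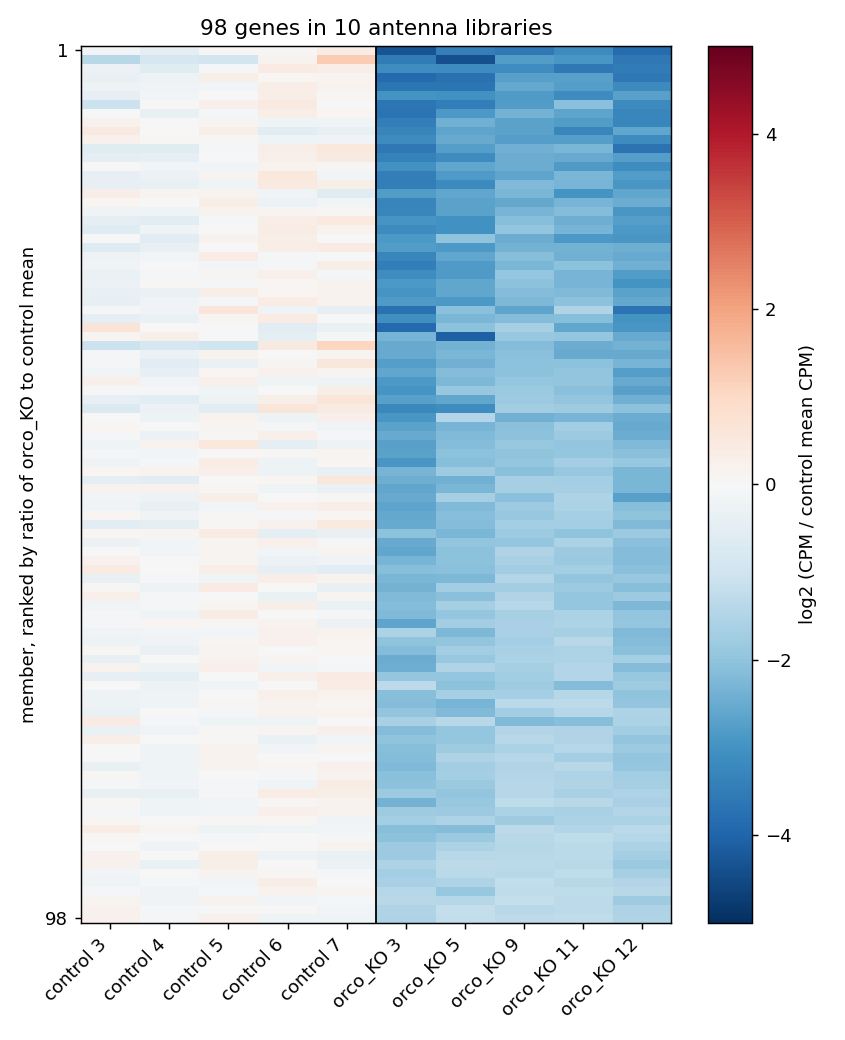
Heat map of log2 (CPM over the control mean CPM) for the 98 genes (rows, ranked by the ratio of group means) in the 10 libraries (columns). Every orco_KO column is blue in all 98 rows, with replicate 3 the lowest in 66 of them, and control columns lie closer to 0, on both sides of it. The row second from the top, LOC113218555, has control 7 at 95.4 CPM against 15.1 CPM in control 3.

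Only 1 of the 98 genes carried a symbol other than an LOC number, and 3 carried a synonym. LOC numbers made up 99.0% of members and 96.0% of the 3720 eligible genes, of which 47 carried a synonym. The 10 genes set aside by symbol are not in either share. The functions of the other LOC genes are not given in the reference used here, and none is stated.

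Fstl5, with the synonym Mahya, encodes a secreted follistatin-like protein first described in the honey bee brain. It lies on linkage group 12, 5142711 to 5200562, forward strand (coordinates here are those of build Amel_HAv3.1). Its levels were 69.2, 65.3, 68.1, 82.2 and 80.3 CPM in controls 3 to 7, and 27.0, 19.5, 30.2, 30.5 and 28.0 CPM in orco_KO 3, 5, 9, 11 and 12. The groups did not overlap, and the control mean of 73.0 ± 7.67 CPM was 2.7-fold the orco_KO mean of 27.0 ± 4.48 CPM (SD, n = 5), one of the smaller differences in the set.

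LOC724903 has the synonym Teh1, the name of a TipE-like accessory subunit of the sodium channel Para in Drosophila. It spans linkage group 1, 17457533 to 17506871, on the reverse strand. Controls were at 212, 193, 240, 345 and 431 CPM, with replicates 6 and 7 the highest, and orco_KO libraries were at 43.8, 47.3, 81.5, 72.8 and 54.5 CPM. The means were 284 ± 101 and 60.0 ± 16.4 CPM (SD, n = 5), a 4.74-fold difference. Para itself had 2961 ± 249 CPM in controls against 1098 ± 167 CPM in the orco_KO libraries, a ratio of 0.371.

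LOC408841 has the synonym Cava2d1, the name of an alpha2-delta subunit, which helps to place voltage-gated calcium channels at the membrane. It lies on linkage group 5, 9932004 to 9943388, on the reverse strand. Its control values in CPM were among the tightest of the set, at 68.8, 67.1, 72.2, 76.8 and 79.3 CPM. In orco_KO it was at 11.5, 17.5, 17.9, 19.2 and 17.2 CPM, so that the mean of 72.8 ± 5.19 CPM in controls stood against 16.7 ± 3.0 CPM (SD, n = 5; 4.37-fold lower). The calcium channel gene Cac was at 1279 ± 188 and 408 ± 76.2 CPM, a ratio of 0.319.

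The lowest ratio belonged to LOC100576603 on linkage group 5, 3043222 to 3061421, forward strand. Its values were 223, 177, 252, 255 and 319 CPM in controls and 12.4, 23.2, 20.9, 27.3 and 16.9 CPM in orco_KO. The highest orco_KO library was thus far below the lowest control, and the means were 245 ± 51.9 and 20.1 ± 5.74 CPM (SD, n = 5; 12.2-fold lower).

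LOC413698, on linkage group 7, 228383 to 289772, forward strand, was at 110, 88.7, 130, 177 and 169 CPM in controls and at 15.6, 15.3, 15.5, 11.4 and 11.8 CPM in orco_KO. Its orco_KO values were close together and did not share the order of the libraries seen for the whole set, as replicates 11 and 12 were the lowest. LOC410948, on linkage group 3, 6067086 to 6074615, reverse strand, was at 118, 129, 189, 168 and 171 CPM against 10.6, 11.7, 23.7, 23.4 and 13.1 CPM. The group means differed 9.68-fold in LOC413698 and 9.40-fold in LOC410948.

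The next in order of ratio were LOC411519 (8.50-fold lower), LOC726106 (7.60-fold), LOC724762 (7.56-fold), LOC413040 (7.42-fold), LOC410657 (7.27-fold) and LOC725495 (7.25-fold). Their control means lay between 56.4 CPM in LOC725495 and 343 CPM in LOC413040. LOC724762 shares 415 bases of its 2411 with a gene on the same strand, so its reads there were not counted.

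LOC113218555, on linkage group 3, 4235195 to 4245641, reverse strand, was second by ratio but rested on uneven controls. It was at 15.1, 22.0, 20.5, 44.5 and 95.4 CPM in controls 3 to 7, and at 3.50, 1.87, 5.63, 5.30 and 3.33 CPM in orco_KO. Control 7 was more than 4-fold above control 4, and the SD over the mean was 0.841, the largest of the 98 genes. LOC725318, on linkage group 14, showed the same high controls, with 58.2, 66.9 and 62.2 CPM in replicates 3, 4 and 5 but 168 and 261 CPM in replicates 6 and 7. In orco_KO it stayed between 21.5 and 27.7 CPM. LOC409105, on linkage group 1, was the third most variable in controls, at 20.8 to 52.1 CPM.

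At the other end, LOC409131 on linkage group 3, 4393505 to 4397574, reverse strand, had the smallest relative spread between controls in CPM. It was at 45.6, 44.3, 42.7, 44.7 and 42.6 CPM there and at 10.7, 12.1, 17.0, 18.0 and 16.3 CPM in orco_KO. LOC411871, on linkage group 2, had 338 ± 25.3 CPM in controls against 109 ± 7.10 CPM (SD, n = 5). The SD over the mean of LOC409131 was 0.0292 in CPM, below what counting error alone would give, and 0.217 with TMM scaling, so its even controls depended on the scaling. In CPM, both controls 6 and 7 were above controls 3, 4 and 5 in 38 of the 98 genes (38.8%) and below them in 18 (18.4%), against 49.0% and 15.8% of all eligible genes. With TMM scaling they were above in 6 members (6.12%) and below in 40 (40.8%), against 18.3% and 39.3% of eligible genes. Without these libraries the median ratio was 0.245.

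**Figure D3:**
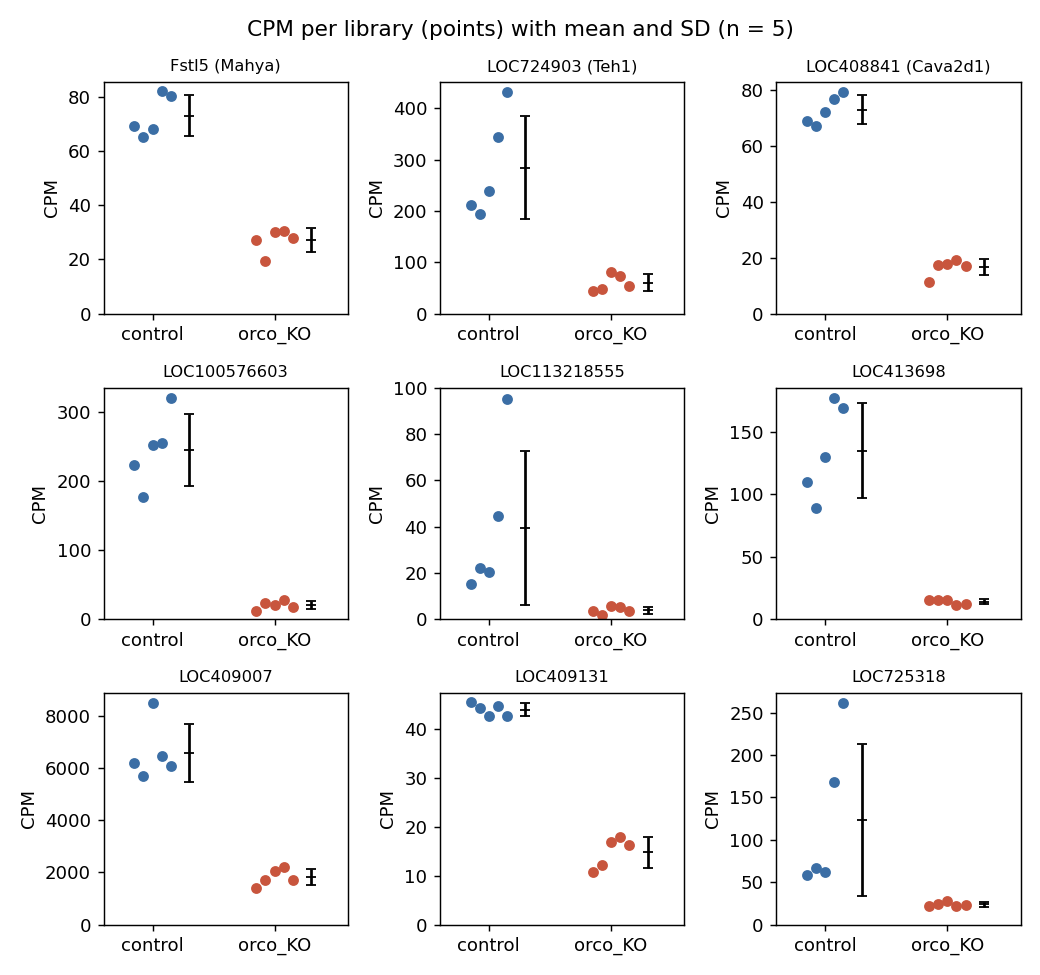
CPM (vertical axes, starting at 0) of 9 members in each library, with control points in blue, orco_KO points in red, and mean with SD (n = 5) as black bars. LOC113218555 and LOC725318 have 2 high controls, replicates 6 and 7, whereas LOC409131 has controls between 42.6 and 45.6 CPM.

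The largest read counts fell on LOC409007, on linkage group 9, 8674489 to 8765777, forward strand. It had 6204, 5717, 8514, 6455 and 6080 CPM in controls and 1411, 1727, 2073, 2208 and 1702 CPM in orco_KO, which is 3.61-fold lower. The microRNA gene Mir7 lies wholly inside it on the same strand. Reads shared by overlapping genes counted for neither gene. Its count of 0 in all 10 libraries was thus set by the counting and says nothing of its level. LOC410498 had 3574 ± 424 CPM in controls against 1016 ± 185 CPM, and LOC413005 had 2464 ± 403 and 911 ± 92.7 CPM (SD, n = 5). For LOC725803, the longest member, the means were 2457 and 593 CPM.

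A further 6 members made up the 10 with the most counts. LOC552619 had 1997 CPM in controls against 414 CPM in orco_KO, LOC408722 had 1962 against 622 CPM, and LOC552243 had 1494 against 522 CPM. LOC724433 was at 1479 and 326 CPM, LOC408576 at 1403 and 344, and LOC408914 at 1358 and 286 CPM. LOC552243 has 20 annotated transcripts, the most of any member. Per kilobase of gene span the order changed: LOC408722 had 165 CPM per kb in controls, ahead of LOC409007 with 72.2, LOC413428 with 65.5, LOC100576194 with 62.6 and LOC408769 with 59.0 CPM per kb.

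Gene span was a property that the rule used only as an upper limit. The 98 genes had a median span of 23385 bases (quartiles 8164 and 60665), against 8545 bases (quartiles 4333 and 22958) over all eligible genes. By span, 1.94% of eligible genes from 2 to 5 kb were members, 4.31% of those from 20 to 50 kb and 7.32% of those from 100 to 200 kb. Genes that were higher in orco_KO without overlap also lay among the long ones, with 2.06% at 2 to 5 kb and 17.6% at 100 to 200 kb. The median control mean of eligible genes was 35.6 CPM under 2 kb and 331 CPM at 100 to 200 kb. Counts cover introns as well as exons, and the part of intron reads in this difference was not tested.

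Control counts differed as well. The members' control mean had a median of 181 CPM, against 67.7 CPM over eligible genes, and members were 0.947% of genes at 20 to 50 CPM and 11.4% of those at 1000 CPM or more. Between the same levels, genes higher in orco_KO without overlap also went from 3.31% to 14.6%. All genes lower without overlap went from 6.02% to 33.3%, so a larger share at high counts was not particular to the members. Taken by both measures, members were 1.22% of genes under 10 kb and 1.54% of genes over 50 kb at 20 to 100 CPM. At 100 to 500 CPM they were 3.06% of genes under 10 kb, 3.97% of those from 10 to 50 kb and 3.65% of those over 50 kb. At 500 CPM or more they were 1 of 38 genes under 10 kb (2.63%), 6 of 139 from 10 to 50 kb (4.32%) and 18 of 146 over 50 kb (12.3%). Per kilobase of span the control medians lay closer, at 8.87 CPM per kb in members and 8.30 CPM per kb in eligible genes. Annotated transcripts had a median of 3 in members and 2 in eligible genes.

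**Figure D4:**
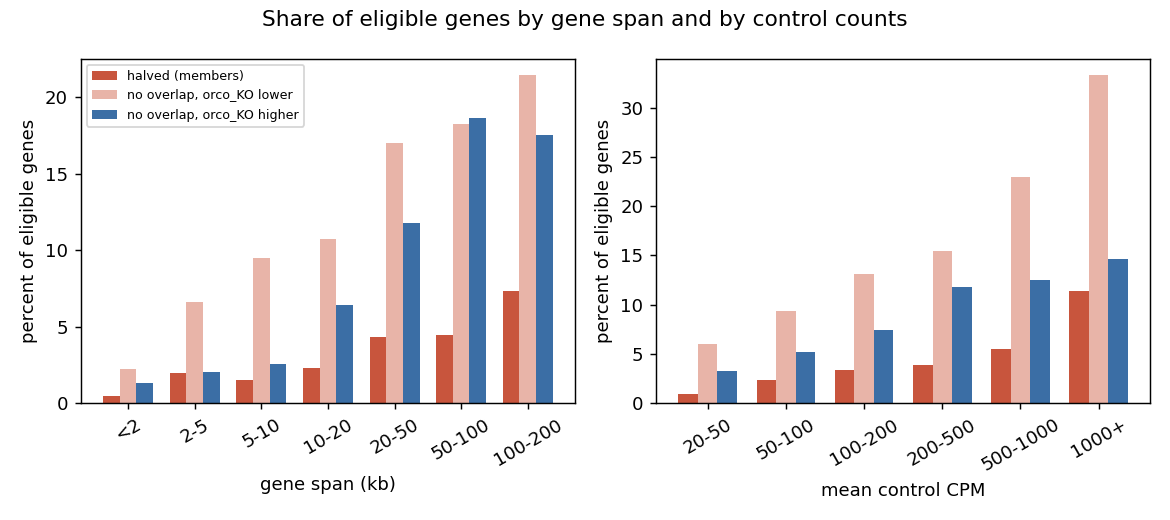
Percent of eligible genes (vertical axes) by gene span in kb (left) and by mean control CPM (right). Dark red bars are the 98 members, pale red bars all genes lower in orco_KO without overlap and blue bars those higher without overlap. All 3 shares are larger for long spans, and the member share reaches 7.32% at 100 to 200 kb and 11.4% at 1000 CPM or more.

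Long span was not a condition for a low ratio. The 15 members of 100 kb or more had ratios between 0.163 and 0.318, with a median of 0.247, and control means from 71.1 CPM in LOC412667 to 3574 CPM in LOC410498. LOC413568 (782 against 127 CPM) and LOC724655 (599 against 97.6 CPM) had the lowest ratios among them. The 32 members under 10 kb had a median ratio of 0.218. By span alone, 6 members were under 3 kb. They were LOC725703 (55.1 ± 9.53 against 17.2 ± 3.03 CPM), LOC725157 (59.4 ± 7.78 against 10.3 ± 3.44), LOC724762 (74.4 ± 24.9 against 9.84 ± 4.61), LOC100576859 (55.8 ± 7.97 against 16.6 ± 3.57), LOC100576194 (162 ± 19.5 against 28.2 ± 7.69) and LOC100188904 (132 ± 20.4 against 21.3 ± 4.93 CPM; SD, n = 5).

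Members lay on all 16 linkage groups. Linkage group 6 held 10 among 204 eligible genes (4.90%) and linkage group 12 held 6 among 135 (4.44%). Linkage group 10 held 1, LOC410202, among 233 (0.429%). None lay within 100 kb of Or2. The nearest, LOC100578445, was 646 kb away on linkage group 1. It was at 26.1, 22.1, 29.3, 21.8 and 31.0 CPM in controls and at 3.50, 9.44, 4.97, 5.19 and 4.68 CPM in orco_KO, where replicate 5 was the highest.

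Members with at most 1 gene between them formed 4 pairs. These were LOC102654949 and LOC406139 on linkage group 4, and LOC408586 and LOC725495 on linkage group 1. The others were LOC724655 and LOC724745 on linkage group 6, and LOC725157 and LOC100578814 on linkage group 12. How many such pairs random placement would give was not computed. LOC102654949 and LOC406139 overlap by 479 bases on the reverse strand, so reads in the shared stretch counted for neither. They were at 23.3 ± 5.58 and 51.9 ± 7.18 CPM in controls and at 5.87 ± 0.786 and 14.8 ± 3.44 CPM in orco_KO (SD, n = 5). In all, 12 members share a strand and bases with another gene. In 9 of these overlaps the other gene is noncoding. Beside Mir7 in LOC409007 these are Mir9874 in LOC408769, a transfer RNA gene in LOC725803 and long noncoding RNAs in LOC413005, LOC413076, LOC413159, LOC726514, LOC413568 and LOC408963. The long noncoding RNA covers 16.2% of the span of LOC413005, 22.0% of that of LOC408963, and 1.02 to 4.48% in the other four.

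The genes beside the members gave values that the rule had not used, apart from leaving these genes out of the set. Next to a member on either side were 190 other genes, of which 141 had enough reads to be tested. Of these, 25 fell and 4 rose, which is 17.7% and 2.84% (quasi-likelihood test of edgeR, threshold 0.05 for p adjusted by Benjamini-Hochberg over 9222 genes). Over all tested genes 7.98% were lower and 4.57% were higher. The neighbours' median log2 fold change was -0.11 and that of all tested genes was -0.06. Among neighbours with a control mean of at least 20 CPM 22.2% were lower, against 12.3% of all tested genes at that level. Below 20 CPM the shares were 14.1% and 4.73%.

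**Figure D5:**
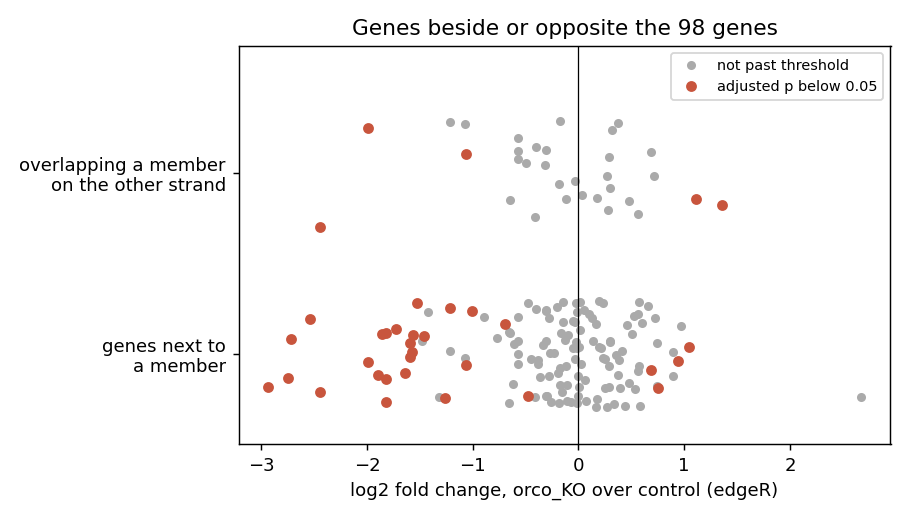
Log2 fold change of orco_KO over control (horizontal axis, edgeR) of the tested genes next to a member and of those that overlap a member on the other strand. Vertical scatter within a row carries no value, and red points passed an adjusted p of 0.05. Among neighbours 25 red points lie left of 0 and 4 right of it.

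The neighbour with the smallest p was LOC408934, 36764 bases from LOC725064 on linkage group 7. It was at 256 ± 75.1 CPM in controls and fell to 68.1 ± 17.6 CPM (SD, n = 5), a log2 fold change of -1.82 (SE 0.186, edgeR adjusted p = 1.9e-05). Its highest orco_KO value was 0.507 times its lowest control, so it missed the set narrowly. LOC408614, 3874 bases from LOC100578445 on the other strand, was at 16.4 ± 2.63 CPM in controls and fell to 4.20 ± 1.02 CPM (SD, n = 5), a log2 fold change of -1.90 (SE 0.205, adjusted p = 3.2e-05). LOC408835, 3970 bases from LOC724433, was at 102 ± 8.78 CPM in controls and fell to 41.2 ± 9.05 CPM (SD, n = 5), a log2 fold change of -1.27 (SE 0.155).

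LOC113218721 is a long noncoding RNA on linkage group 4, 13197776 to 13198390, forward strand. It ends 8 bases before LOC408769, on the same strand. It was at 132, 116, 108, 72.6 and 81.1 CPM in controls and at 20.7, 16.0, 19.9, 20.2 and 11.4 CPM in orco_KO, with no overlap (log2 fold change -2.54, SE 0.289, edgeR adjusted p = 4.8e-05). LOC408769 was at 598 ± 51.9 and 128 ± 34.3 CPM (SD, n = 5).

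On linkage group 4 the pair LOC102654949 and LOC406139 was flanked on both sides by genes of the same strand that fell. LOC113218745 lies 901 bases from LOC406139 and was at 24.3 ± 6.56 CPM in controls and fell to 7.62 ± 2.19 CPM (SD, n = 5), a log2 fold change of -1.60 (SE 0.196, edgeR adjusted p = 8.5e-05). LOC409981 lies 25 bases from LOC102654949. It was at 474, 326, 361, 230 and 229 CPM in controls and at 139, 165, 121, 142 and 131 CPM in orco_KO (log2 fold change -1.22, SE 0.303, adjusted p = 0.0166). That call was lost without orco_KO replicate 12 (adjusted p = 0.0512). LOC409981 was named after its values were seen, as were LOC410947, LOC552725 and LOC412742.

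LOC410947 lies 1436 bases from LOC410948 on linkage group 3, on the same strand. It was at 9.23 ± 2.41 CPM in controls and fell to 1.33 ± 1.15 CPM (SD, n = 5), a log2 fold change of -2.75 (SE 0.460, edgeR adjusted p = 0.00111). Between LOC725157 and LOC100578814 on linkage group 12 lies LOC552725. It was at 1.90, 6.56, 10.6, 33.0 and 42.9 CPM in controls and at 1.98 to 3.0 CPM in orco_KO, so that control 3 lay below every orco_KO library. Its log2 fold change was -2.72 (SE 0.546, edgeR adjusted p = 0.00439), and -1.47 without controls 6 and 7 (adjusted p = 0.0302). On the far side of LOC725157, LOC412742 had a log2 fold change of -0.48 (edgeR adjusted p = 0.0488), a call lost in 13 of 15 alternatives, among them 9 of 10 fits with a single library removed (adjusted p up to 0.118).

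The 4 neighbours that rose were LOC100577603 beside LOC410202, LOC725479 beside LOC413040, LOC724835 beside LOC724903 and LOC409778 beside Fstl5. LOC100577603 was at 300 ± 49.7 CPM in controls and rose to 589 ± 41.8 CPM (SD, n = 5), a log2 fold change of 1.04 (SE 0.189, edgeR adjusted p = 0.00206). The call of LOC724835 was lost without controls 6 and 7 together (edgeR adjusted p = 0.0510).

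On the other strand, 58 genes overlapped a member, 34 of them also neighbours, and 32 could be tested. Of these 3 fell and 2 rose (9.38% and 6.25%), beside 7.98% and 4.57% of all tested genes. LOC113218637, a long noncoding RNA opposite LOC725894, was at 3.63 ± 1.31 CPM in controls and fell to 0.614 ± 0.455 CPM (SD, n = 5), a log2 fold change of -2.44 (SE 0.463, edgeR adjusted p = 0.00291). LOC102654874, opposite LOC409007, was at 25.8 ± 16.6 CPM in controls and fell to 5.98 ± 3.30 CPM (SD, n = 5), a log2 fold change of -1.99 (SE 0.395, adjusted p = 0.00399). In controls these 2 genes had 1.15% and 0.392% of the counts of the member they overlap, and whether reads of the member reached them was not tested.

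LOC726496, opposite LOC113218555, fell by 1.06 on the log2 scale (SE 0.228, edgeR adjusted p = 0.00692), with control 7 at 34.3 CPM and the other controls at 12 to 17.1 CPM. LOC100579007, opposite LOC100576965, rose by 1.36 (SE 0.351, adjusted p = 0.0201), and LOC726850, opposite LOC409007, rose by 1.11 (SE 0.297, adjusted p = 0.0240). LOC100579007 lost its call without orco_KO replicate 3 (edgeR adjusted p = 0.0622), and LOC726850 lost it in 4 of 10 such fits (adjusted p up to 0.0727), those lacking control 6, control 7, orco_KO 3 or orco_KO 12. Without controls 6 and 7 together both lost their calls (edgeR adjusted p = 0.0878 and 0.124).

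The edge of the rule ran through a continuous series of values. Just inside it, the highest orco_KO library over the lowest control was 0.498 in LOC411282, 0.496 in LOC724762 and LOC408653, 0.495 in LOC552243 and 0.492 in LOC413159. Just outside lay LOC411693 at 0.50001, LOC102656473 at 0.501, LOC551780 at 0.504, LOC409142 at 0.505 and LOC408934 at 0.507. LOC411693 had 501 CPM in controls against 132 CPM in orco_KO, a larger difference between means than that of Fstl5. With libraries scaled by TMM, 74 of the 98 genes met the rule and 7 others joined them.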

How the data were processed

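RNA of antennae was sequenced in 10 libraries, 5 per group. Per the labels' protocols, ribosomal RNA was removed and a stranded kit was used. The authors deposited raw counts per gene, 1 table per library. The submitters' processing notes name STAR 2.7.3a as the aligner. The headers name featureCounts 2.0.0 with strand setting 2 and the gene, introns included, as the counted feature, and no option for reads shared by overlapping genes was set. Of 12337 features 5 were virus genomes, left out of library sums. Genes were named by exact coordinates from the RefSeq table of Amel_HAv3.1 (12325 features matched).

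CPM, means, SD and ratios were computed in Python 3.11.15. Genes beside or opposite members were tested with edgeR 4.0.16 in R 4.3.3 (filterByExpr, TMM, quasi-likelihood test without covariates, Benjamini-Hochberg over 9222 genes). The standard error is the log2 fold change over the root of F. DESeq2 1.42.0 was an alternative. The test was tried on simulated counts. The lowest count of a member in any library was 16. Relative counting error (Poisson, on group means) had a median of 0.0190 in controls and 0.0507 in orco_KO, with 0.150 the largest, in LOC113218555. It was above 0.5 times the spread between libraries for 1 member in controls and 6 in orco_KO.

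Members and lists were chosen with earlier results of these data known. Named were members with a symbol or synonym, the 10 lowest ratios, the 10 highest control means, the extremes of control spread, members at the limit, beside each other or sharing a strand, the 6 shortest, and the 5 neighbours and 5 opposite genes with the smallest p. Paralogs and promoter motifs were not analysed here.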

Additional observations from a re-analysis of the deposited data

Results flagged for a closer look

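Of 196 sets of 5 values (98 genes in each group), 6 held a library far from the other 4 of its group by Dixon's criterion. Chance meets this criterion in about 1 of 20 sets, and the 6 sets were 3.06%, no more than chance would give. In controls these were LOC102654930 at 143 CPM in replicate 5, LOC409007 at 8514 CPM in replicate 5, LOC725703 at 71.7 CPM in replicate 7 and LOC410498 at 2843 CPM in replicate 4, the only low one of the 4. In orco_KO they were LOC100578445 at 9.44 CPM in replicate 5, above the others, and LOC408841 at 11.5 CPM in replicate 3, below the others.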

How the results depend on the processing

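The number of genes that met the rule was 98, and it was 81 with TMM (74 shared), 73 with DESeq2 size factors (66 shared), 155 with no minimum of control CPM, 410 with a fold limit of 1 and 12 with a limit of 0.25. It was 98 to 120 when single libraries were left out, and 125 without controls 6 and 7 together (97 shared), where fewer libraries make the rule easier to meet by construction. The median ratio stayed between 0.223 and 0.258 under all alternatives run. The control share was 4.75 to 5.01% and the orco_KO share 1.22 to 1.34% with single libraries left out. Lower neighbours numbered 21 to 25 without single libraries. Higher neighbours numbered 4 to 7, with 7 without control replicate 3, and 9 by DESeq2. Opposite genes that rose numbered 0 to 3 in these fits, with 0 without orco_KO replicate 3 (5 at an unadjusted p below 0.05), and 0 without controls 6 and 7 together (2 unadjusted). DESeq2 called 2 of them. The cause was not tested. With the replicate block, in the 4 libraries numbered 3 and 5, there were 18 lower and 7 higher neighbours and 2 lower and 3 higher opposite genes. Only these numbers are shared. Deviations of same-numbered libraries had correlations of 0.116 and 0.193 across genes. No value for libraries of different numbers is set beside these, so they do not show a shared origin. In that fit LOC725479, LOC409778, LOC552725, LOC726496 and LOC412742 were not called (adjusted p 0.122, 0.269, 0.240, 0.226 and 0.413). The comparison of CPM with TMM for patterns within groups was chosen after seeing the data. Depth limits the members with the fewest reads: counting error alone was above 0.5 times the spread for 6 of them in orco_KO. Among neighbours, 49 of 190 had too few reads to be tested.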
